A study of Oryza sativa Japonica Group with 4 samples.

Results

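Ripening panicles of a POLA RNAi line were compared with panicles of the pola mutant in early to late meiosis, in rice (Oryza sativa Japonica Group). These are 2 of the 4 arrays of a study of POLARIS (POLA) in panicles. The RNAi line was a T2 line sampled 10 to 15 days after pollination. The mutant was sampled while meiosis was under way. The wild type of each stage was measured too, and all plants grew in a greenhouse in natural daylight. RNA of 20 panicles from 10 plants was pooled for each array, and every group had 1 array. There was therefore no replicate check and no test was run, and precision is limited by this number of arrays. Stage and line type differed together between the RNAi and the mutant array, so a difference of stage and a difference between an RNAi line and a mutant cannot be told apart in this pair alone. One label of the RNAi sample, its description, speaks of wild lines; the other labels name the RNAi line and were followed. Which probe set measures POLA could not be taken from the gene tables, so the knockdown was not checked.

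A rice panicle at meiosis is made of young flowers whose anthers contain meiocytes surrounded by the tapetum, the layer that feeds them and later supplies the wall of the pollen. At the ripening stage the same organ carries filling grains. Their endosperm accumulates starch and the storage proteins glutelin and prolamin, and their embryo and aleurone make oil, protective proteins and phytate.

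The arrays measured 57194 probe sets besides controls, and the values are MAS5 signals, the brightness of a probe set on a linear scale. Every signal under 163, the highest median of the 4 arrays, was raised to that floor before the log2 ratio of RNAi line over mutant was taken. A gene under the floor on 1 array therefore has only a bound, written as "at least" or, for negative log2 ratios, "at most". Medians over a list or a stretch hold such genes at their bound, and genes under the floor on both arrays at 0. The floor covered 62.0% of the probe sets in the RNAi line and 63.2% in the mutant, and it is a scaling choice, not a measured background. Median signals were 65.7 in the RNAi line and 51.8 in the mutant, against 163 and 124 in wild type at ripening and at meiosis. The ratio of 3′ to 5′ probe sets of GAPDH, a sign of RNA quality, was 3.32 in the RNAi line and 4.22 in the mutant, against 2.01 and 2.04 in wild type at ripening and at meiosis. The other controls did not set both pola arrays apart: the ratio of actin was 6.10 in the RNAi line and 8.06 in the mutant, against 6.22 and 5.89 in wild type at ripening and at meiosis. That of cyclophilin was 1.27 in the RNAi line and 1.86 in the mutant, against 1.90 and 1.42 in wild type at ripening and at meiosis, and that of ubiquitin lay between 0.766 and 0.796 on the 4 arrays. Spiked-in hybridization controls were brighter on both ripening arrays, with a median log2 ratio of 0.74 in the pola pair and 0.63 in the wild-type pair. The part of these array differences in the results was not tested. Fewer cells of a type and less RNA per cell cannot be told apart in pooled panicles.

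Many grain genes were higher in the RNAi line and many anther genes were higher in the mutant. Of 57194 probe sets, 3179 (5.56%) were at least 2-fold higher in the RNAi line and 3615 (6.32%) at least 2-fold lower. In the other pair, wild type at ripening over wild type at meiosis, 3714 (6.49%) were higher and 3507 (6.13%) lower, and past 2-fold either way were 11.9% in the pola pair and 12.6% in wild type. For 17905 genes, each represented by its brightest probe set, 1969 (11.0%) were higher and 2395 (13.4%) lower, 24.4% in all. Among the higher genes 1222 were measured above the floor on both arrays and 747 are lower bounds. Among the lower genes 1800 were measured on both and 595 are bounds. The higher side reached further: 67 genes were at least 64-fold higher and 20 at least 64-fold lower, although more genes were lower at 2-fold. Where a called gene had other probe sets, all those above the floor went the same way for 239 of 263 higher genes (90.9%) and for 225 of 253 lower genes (88.9%). The median log2 ratio over 18669 probe sets above the floor on both arrays was -0.00.

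**Figure D1:**
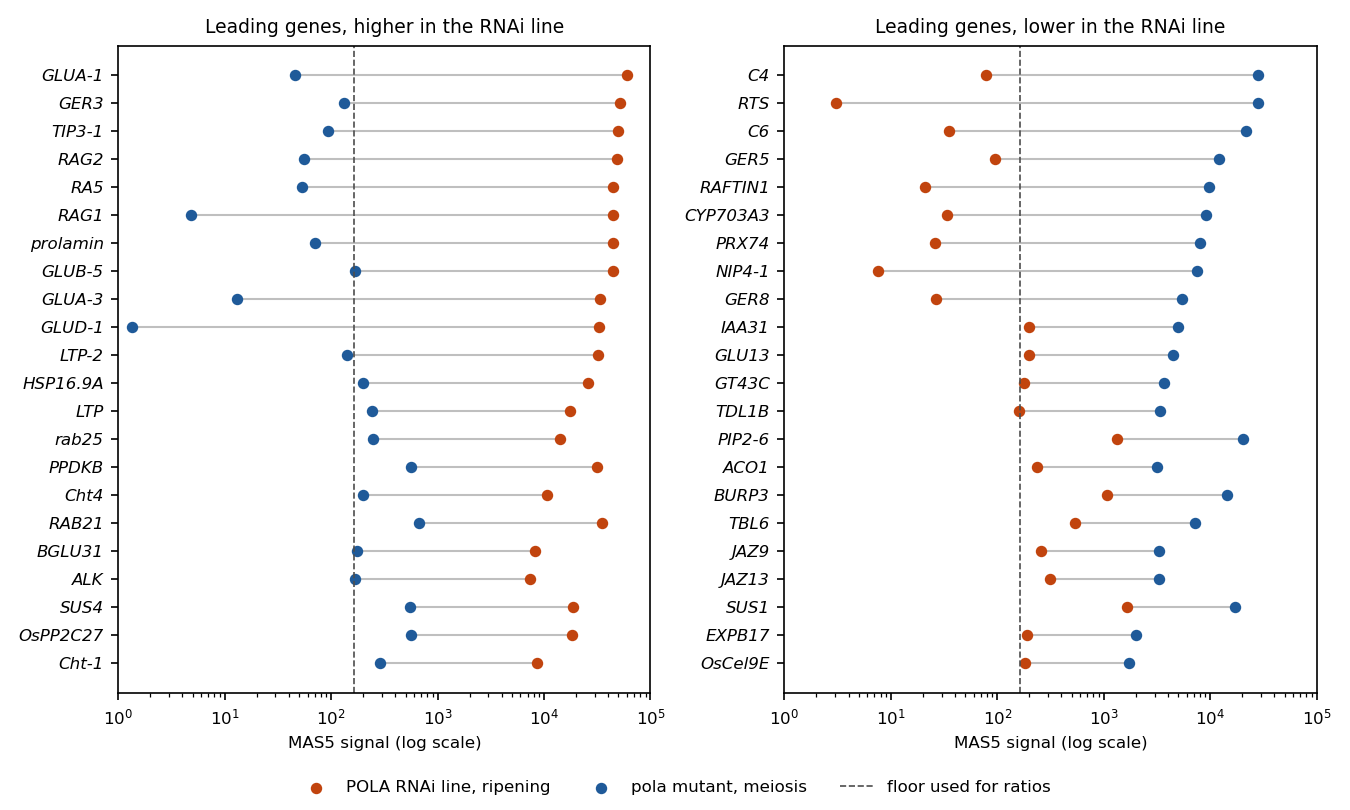
MAS5 signals (horizontal log axis) of the leading named genes in the POLA RNAi line at ripening (orange) and the pola mutant at meiosis (blue), 1 array each, with the genes higher in the RNAi line on the left and those lower on the right. The dashed line marks the floor of 163, and the grain genes run up to 59928 in the RNAi line, while the anther genes run up to 28210 in the mutant.

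Seed storage genes were among the largest differences. Of 10 measured storage genes 8 were higher in the RNAi line and none was lower, where 11.0% of all genes were higher and 13.4% lower. The median log2 ratio of the storage genes was 8.06, against 0.00 over all genes. The glutelin gene GLUA-1 had 59928 in the RNAi line and 45.5 in the mutant, at least 368-fold higher. Wild type gave 45837 at ripening and 17.2 at meiosis for the same gene, so both ripening arrays were high and both meiotic arrays were under the floor. RAG2 and RAG1, which encode seed allergens of the amylase and trypsin inhibitor family, had 48837 and 44456 in the RNAi line against 55.6 and 4.84 in the mutant. The related RA5 had 44902 in the RNAi line and 53.1 in the mutant, at least 275-fold higher. The prolamin gene had 44136 in the RNAi line and 70.7 in the mutant, at least 271-fold higher. GLUB-5 was above the floor on both arrays and 264-fold higher, with 44608 in the RNAi line and 169 in the mutant. GLUA-3 and GLUD-1 had 33502 and 33119 in the RNAi line and lay under the floor in the mutant, at 13.1 and 1.34. Of the other members, GLUA-2 had 257 in the RNAi line and 251 in the mutant, and GLUB-4 was under the floor on both arrays. Glutelins and prolamins are families of near-identical copies, and a probe set can catch RNA of several of them, so values of single copies are uncertain.

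The machinery that processes storage proteins differed less than the proteins themselves. VPE1, the vacuolar enzyme that cleaves proglutelin, had 12918 in the RNAi line and 3031 in the mutant, a log2 ratio of 2.09. It was the only 1 of 5 measured sorting and processing genes past 2-fold. Of 31 secretory protein folding genes 4 (12.9%) passed 2-fold upwards and 2 (6.45%) downwards, where 11.0% of all genes were higher and 13.4% lower. The median of the list was -0.00. The chaperone and disulfide isomerase genes of the endoplasmic reticulum were bright on both arrays. PDIL1-1 had 28963 in the RNAi line and 10513 in the mutant, and BIP1 had 18680 in the RNAi line and 8341 in the mutant. PDIL1-4 had 9341 in the RNAi line and 2436 in the mutant.

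Starch genes split by enzyme. Of 11 measured genes 6 were higher, where 11.0% of all genes were, and none was lower. The median log2 ratio of the 11 was 1.29. GBSS1, the Waxy gene whose enzyme makes amylose, had 28232 in the RNAi line and 36.9 in the mutant, a log2 ratio of at least 7.44. ALK, the starch synthase that elongates amylopectin chains in the grain, had 7360 in the RNAi line and 169 in the mutant, 43.5-fold higher. The branching enzyme gene Sbe1 had 40778 in the RNAi line and 1415 in the mutant, and AGPS2, a subunit of the enzyme that makes ADP-glucose, had 28500 in the RNAi line and 2280 in the mutant. Their mutant signals were well above the floor, so these genes were measured in both panicles. SSI had a log2 ratio of 2.43 and DPE1 one of 1.29. The other 5 were within 2-fold, from DPE2 at 0.87 down to SSII-1 at -0.48, and SSII-1 and SSII-2 are members of the ALK family.

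Sugar supply genes went both ways. Of the sucrose synthases, which break down sucrose in sink tissue, 2 were higher and 3 lower in the RNAi line. SUS4 had 18728 in the RNAi line and 553 in the mutant, 33.9-fold higher, and SUS3 had 13900 in the RNAi line and 659 in the mutant. In the opposite direction, SUS1 had 1638 in the RNAi line and 17275 in the mutant, 10.5-fold lower, and SUS6 and SUS5 had 17.2 and 43.4 in the RNAi line against 642 and 505 in the mutant. The sugar exporter SWEET11, which feeds the filling grain, had 29023 in the RNAi line and 5871 in the mutant, while SWEET1A had 1274 in the RNAi line and 11673 in the mutant. Over all 36 genes of sucrose use and sugar transport 8 (22.2%) were higher and 5 (13.9%) lower. Of all genes 11.0% were higher and 13.4% lower. PPDKB, pyruvate orthophosphate dikinase, had 31222 in the RNAi line and 563 in the mutant, a log2 ratio of 5.79. CIN7, a cell wall invertase gene, had a log2 ratio of -1.10, with 808 in the RNAi line and 1728 in the mutant.

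Genes of the embryo, the aleurone and of drying seed were higher as well. Of 9 oil body and late embryogenesis genes 7 were higher and none lower, where 11.0% of all genes were higher and 13.4% lower. The median log2 ratio of the 9 was 4.49. EM, a late embryogenesis protein, had 30401 in the RNAi line and 110 in the mutant, a log2 ratio of at least 7.54. LEA19 had 13249 in the RNAi line and 146 in the mutant, a log2 ratio of at least 6.34. The oil body peroxygenase gene PXG had 9182 in the RNAi line and 515 in the mutant. RAB21, a dehydrin that protects cells on drying, had 35301 in the RNAi line and 668 in the mutant, 52.8-fold higher. In wild type RAB21 had 22853 at ripening and 47.5 at meiosis, so the mutant was above the floor and meiotic wild type under it. TIP3-1, a water channel of seed vacuoles, had 49446 in the RNAi line and 93.6 in the mutant, at least 303-fold higher. The 1-Cys peroxiredoxin gene R1C-Prx had 30976 in the RNAi line and 103 in the mutant, a log2 ratio of at least 7.57. The germin-like gene GER3 had 51722 in the RNAi line and 131 in the mutant. Germins went both ways, with 3 of 9 higher and 3 lower, and GER5 had 94.1 in the RNAi line and 12202 in the mutant.

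**Figure D2:**
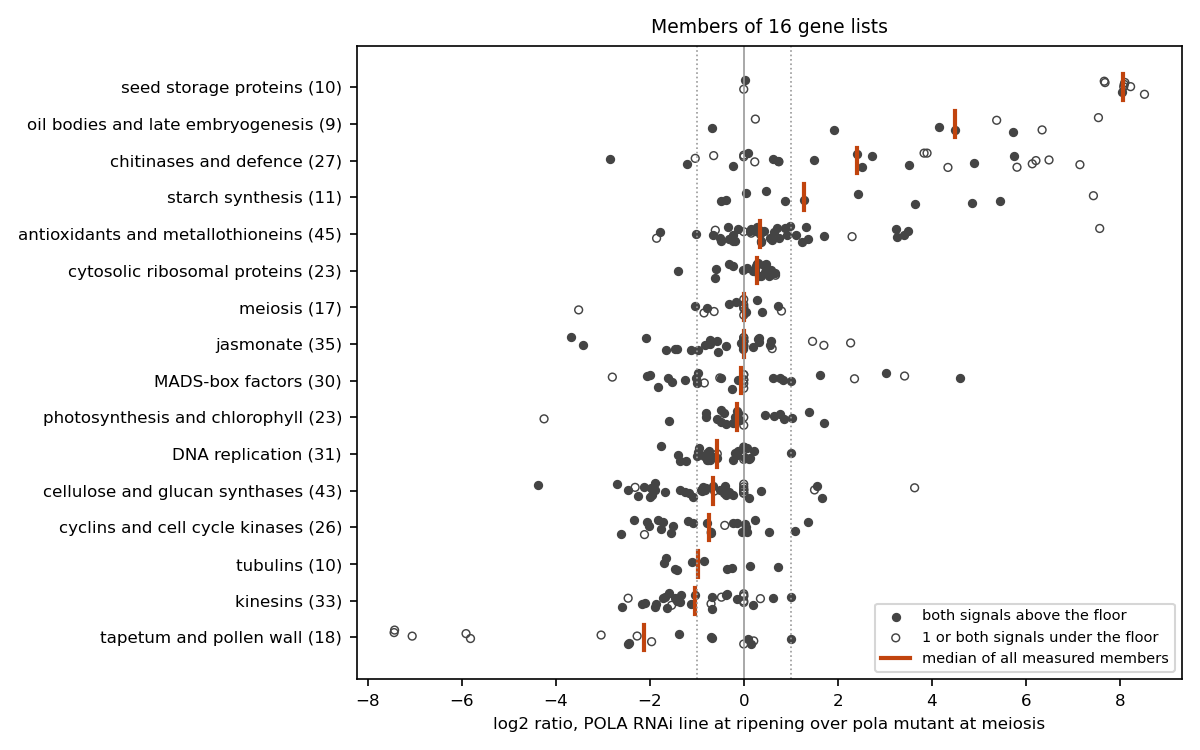
Log2 ratio of the POLA RNAi line at ripening over the pola mutant at meiosis for each measured member of 16 gene lists (the number in brackets), with filled points where both signals passed the floor, open points where 1 or both did not, and a bar at the median of all measured members. Dotted lines mark 2-fold, and the medians run from 8.06 for seed storage proteins to -2.11 for tapetum and pollen wall genes.

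Many defence and inhibitor genes were higher. Of 27 genes 15 were higher and 3 lower, where 11.0% of all genes were higher, and the median log2 ratio was 2.42. Cht4 and Cht-1, both chitinases, which cut fungal cell walls, had 10708 and 8522 in the RNAi line against 199 and 288 in the mutant. The lectin gene Agglutinin had 23140 in the RNAi line and 32.4 in the mutant, a log2 ratio of at least 7.15. PBZ1, a pathogenesis-related protein, had 35474 in the RNAi line and 3111 in the mutant. The protease inhibitors OC-I, an oryzacystatin, and RBBI3.3, of the Bowman-Birk type, had 28532 and 27611 in the RNAi line against 4285 and 5175 in the mutant. The chitinase gene Chia1d was lower, with 2679 in the RNAi line and 19362 in the mutant. Heat shock genes were mixed: 14 of 45 were higher and 5 lower. HSP16.9A, a small heat shock protein, had 25710 in the RNAi line and 201 in the mutant, 128-fold higher, while HSP17.9B had 2344 in the RNAi line and 6943 in the mutant.

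Diterpenoid genes that sit side by side in the genome were higher together. Rice makes the antimicrobial phytocassanes and momilactones from a common precursor, with cyclases and cytochrome P450 enzymes encoded in gene clusters. Among 17905 measured genes in genome order there were 19 stretches of at least 4 neighbouring genes past 2-fold in the same direction, 14 higher and 5 lower. The longest held CYP76M8, the unnamed LOC4329723, DTC1, CYP71Z6, CYP71Z7 and CPS2, whose named members belong to the phytocassane cluster. CYP71Z7, a P450, had 6178 in the RNAi line and 31.5 in the mutant, a log2 ratio of at least 5.24. CPS2, the cyclase that starts the pathway, had 3976 in the RNAi line and 8.23 in the mutant, a log2 ratio of at least 4.61. DTC1, the diterpene synthase of that branch, had 519 in the RNAi line and 90.1 in the mutant. The stretch of CPS4, CYP99A3, OsMAS, DTS2 and CYP99A2, the momilactone cluster, was one of 3 stretches of 5. CPS4, the cyclase of that branch, had 793 in the RNAi line and 0.695 in the mutant, and DTS2, its diterpene synthase, had 810 in the RNAi line and 1.85 in the mutant. OsMAS, the momilactone A synthase, had 373 in the RNAi line and 5.75 in the mutant. Of all 16 measured genes of these pathways 11 were higher, where 11.0% of all genes were, and none was lower. Of the others, CYP76M5, KS6 and KS10 had log2 ratios of at least 0.59, 0.53 and 0.13. The other 2, CYP76M6 and CYP76M7, were under the floor on both arrays. In wild type 10 of the 16 were higher at ripening, and the 5 momilactone genes lay between 554, for DTS2, and 942, for CYP99A3, in wild type at ripening. This family was looked at after its values were seen, and all 11 ratios past 2-fold are bounds. CYP76M8, DTC1, CYP71Z6, CYP99A3 and OsMAS did not stay past 2-fold under every alternative processing. The length of both stretches therefore depends on the floor chosen. CYP71Z6 and CYP71Z7 are close copies, so their separate values are uncertain. Named storage genes also lay in stretches: RAG1 and RAG2 in a stretch of 4 with a median log2 ratio of 7.99, and RA5 in a stretch of 5 with a median of 6.53. The other members of both are unnamed. In the stretch of RA5, LOC4342731 and LOC4342734 had log2 ratios of at least 1.05 and 1.15 only, and both were under the floor on the wild-type arrays.

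**Figure D3:**
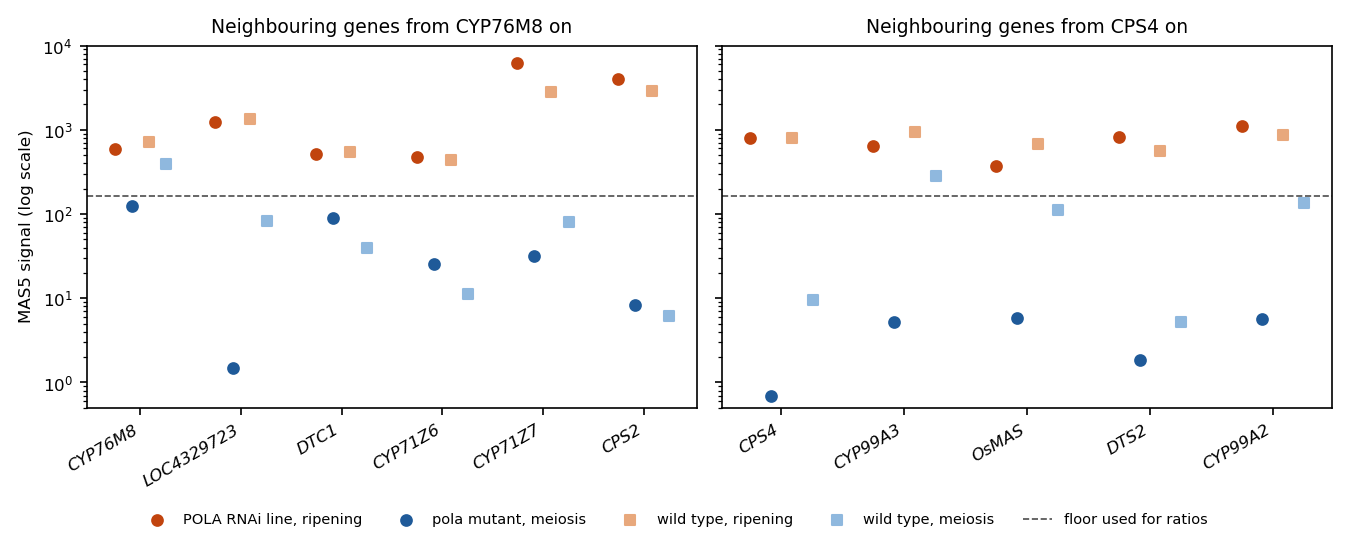
MAS5 signals (vertical log axis) of neighbouring diterpenoid genes on the 4 arrays, 1 array per group, with the phytocassane stretch on the left and the momilactone stretch on the right. Circles are the RNAi line and the mutant, squares are wild type and the dashed line is the floor of 163. The stretches were found by a ratio at least 2-fold higher in the RNAi line. All 11 genes therefore lie above the floor there by choice, and in the mutant all 11 lie under it.

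Genes for phytate and phosphate were mostly within 2-fold or higher. Phytate is the form in which seeds store phosphorus. Of 25 measured genes 11 were higher and 2 lower, where 11.0% of all genes were higher and 13.4% lower. This family too was chosen after its values were seen. INO1, the enzyme of the first step of inositol synthesis, had 15713 in the RNAi line and 5257 in the mutant. The inositol phosphate kinase genes IPK1 and OsITPK3 had 9195 and 6553 in the RNAi line against 2532 and 669 in the mutant. Lpa1, which acts in the same pathway, had 6119 in the RNAi line and 1521 in the mutant. OsPHO1;2, a phosphate exporter, had 2532 in the RNAi line and 476 in the mutant, and its 2 other probe sets did not share this direction. The 2 lower genes, the phosphate transporters OsPht1;7 and OsPht1;12, had 334 and 343 in the mutant and were under the floor in the RNAi line.

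Regulators of the seed were among the higher genes. NFYB1, an endosperm transcription factor, had 12164 in the RNAi line and 52.9 in the mutant, a log2 ratio of at least 6.22. VP1, the factor that drives seed maturation, had 1447 in the RNAi line and 4.49 in the mutant. Of 36 seed and stress factors 8 (22.2%) were higher and 6 (16.7%) lower, where 11.0% of all genes were higher and 13.4% lower. OsOBF1, a bZIP factor, had 6725 in the RNAi line and 17368 in the mutant. The MADS-box genes of ovule and seed were higher: MADS21 had 4279 in the RNAi line and 176 in the mutant, MADS13 had 3178 in the RNAi line and 388 in the mutant, and MADS29 had 1745 in the RNAi line and 96.0 in the mutant. MADS16, which helps to specify stamens, had 3739 in the RNAi line and 15577 in the mutant. MADS5 and MADS18 had 2118 and 1899 in the RNAi line against 6052 and 4545 in the mutant. In all 6 of 30 MADS-box genes (20%) were higher and 8 (26.7%) lower. The florigen family, chosen after its values were seen, was higher in 3 of 3 measured members. MFT1 had 8442 in the RNAi line and 894 in the mutant, MFT2 had 3606 in the RNAi line and 1.56 in the mutant, and Hd3a itself, the florigen, had 960 in the RNAi line and 101 in the mutant.

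On the side of the mutant, tapetum and pollen wall genes led. Of 18 measured genes 11 were lower in the RNAi line, 1 was higher and the median log2 ratio was -2.11, where 13.4% of all genes were lower. C4 and C6, lipid transfer proteins of the anther, had 77.9 and 34.9 in the RNAi line against 28210 and 21610 in the mutant, at least 173-fold and at least 133-fold lower. RTS, a tapetum gene needed for fertile pollen, had 3.08 in the RNAi line and 28011 in the mutant, at least 172-fold lower. RAFTIN1 had 20.9 in the RNAi line and 9771 in the mutant, at least 59.9-fold lower. CYP703A3, which hydroxylates fatty acids for sporopollenin, had 33.6 in the RNAi line and 9148 in the mutant, at least 56.1-fold lower. Among regulators, EAT1 and TDR, bHLH factors of tapetum development, had 301 and 15.6 in the RNAi line against 1643 and 1334 in the mutant, and GAMYB had 1035 in the RNAi line and 2695 in the mutant. PTC1 had 91.9 in the RNAi line and 785 in the mutant. MADS3, the 1 higher member, is an organ identity gene, with 1510 in the RNAi line and 751 in the mutant. Outside the list, the water channel NIP4-1, the peroxidase PRX74 and the germin-like GER8 had the same form, under the floor in the RNAi line and at 7499, 8008 and 5445 in the mutant. CP1, a cysteine protease of the tapetum, was under the floor on both arrays.

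Meiosis genes themselves differed little, and several markers of meiocytes were not bright on the mutant array. Of 17 measured genes 2 (11.8%) were lower, near the 13.4% of all genes, none was higher and 5 were under the floor on both arrays. With quantile normalization or loess centring 1 was lower, and with a pseudocount in place of the floor 4 were lower and 2 higher. MEL1, a germline argonaute, had 133 in the RNAi line and 1858 in the mutant, a log2 ratio of at most -3.51. SPO11-4 had 2014 in the RNAi line and 4141 in the mutant, and its log2 ratio of -1.04 came to -0.99 under quantile normalization. PAIR2 had 739 in the RNAi line and 829 in the mutant, and the recombinase gene DMC1 had 338 in the RNAi line and 204 in the mutant. PAIR1, MER3, HEI10, CRC1 and SDS stayed under the floor on both arrays. With the floor, MEL1 and SPO11-4 thus were higher in the mutant and the other 15 did not separate the arrays by 2-fold. In wild type 2 of the 17 were lower at ripening, and MEL1 had 138 at ripening and 2276 at meiosis. The signals of the 17 genes summed to 10433 in the mutant and 11495 in wild type at meiosis.

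Many genes of dividing cells were lower in the RNAi line. Of 26 cyclins and cell cycle kinases 12 were lower and 2 higher, of 33 kinesins 17 were lower and 1 higher, and of 10 tubulins 5 were lower and none higher, where 13.4% of all genes were lower and 11.0% higher. The mitotic cyclin CYCB1-1 had 632 in the RNAi line and 2240 in the mutant, and the mitotic kinase CDKB2-1 had 493 in the RNAi line and 1985 in the mutant. Among motor proteins, KIN4A had 1324 in the RNAi line and 3344 in the mutant, and KIN14C had 1012 in the RNAi line and 3146 in the mutant. TUB1 and TUB4 had 5742 and 4144 in the RNAi line against 15274 and 13050 in the mutant, but neither stayed past 2-fold under every alternative processing. As the mean over the probe sets of each gene, 3 of the 10 tubulins were lower. These differences were of moderate size, with list medians of -0.74, -1.04 and -0.98 on the log2 scale. Of 31 DNA replication genes 4 were lower, a share of 12.9% that is near that of all genes, and 1 was higher. Their median of -0.58 still lay below the 0.00 of all genes, and the count at 2-fold leaves out smaller differences. MCM3, a helicase subunit, had 425 in the RNAi line and 1127 in the mutant. CenH3, the histone of centromeres, had 536 in the RNAi line and 1232 in the mutant, and 3 of 6 core histone genes were lower. The inhibitors of cyclin-dependent kinases went both ways, as KRP1 had 2957 in the RNAi line and 1394 in the mutant, and KRP5 had 458 in the RNAi line and 1919 in the mutant. Ribosomal protein genes were within 2-fold for 22 of 23, with RPL18 lower at 2444 in the RNAi line and 6426 in the mutant.

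Some cell wall genes were lower too. Of 43 cellulose and glucan synthase genes 16 (37.2%) were lower and 4 (9.30%) higher, where 13.4% of all genes were lower and 11.0% higher. CESA4 and CESA7, cellulose synthases of secondary walls, had 2160 and 1726 in the RNAi line against 8470 and 8207 in the mutant. CESA1, of primary walls, had 5314 in the RNAi line and 11916 in the mutant. GT43C had 177 in the RNAi line and 3707 in the mutant, a log2 ratio of -4.39. TBL6, of a family that acetylates wall xylan, had 541 in the RNAi line and 7130 in the mutant, and 4 of 6 measured members of that family were lower and none higher. BC1L9 was an exception, with 2024 in the RNAi line and 142 in the mutant. Expansins, which loosen walls, were lower in 7 of 29 and higher in 2. EXP7 had 4155 in the RNAi line and 14098 in the mutant, while EXPB9 had 3344 in the RNAi line and 81.2 in the mutant.

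Factors of panicle and flower meristems were lower in 11 of 43 (25.6%) and higher in 3 (6.98%). Of all genes 13.4% were lower and 11.0% higher. With a floor of 326, 7 of the factors were lower, and with a pseudocount in place of the floor 7 were higher. OsYABBY5 had 152 in the RNAi line and 1844 in the mutant, and OsPHAN had 1411 in the RNAi line and 6270 in the mutant. SPL2 and SPL12, squamosa promoter binding factors, had 776 and 306 in the RNAi line against 2936 and 1875 in the mutant. OsYABBY6 was higher, with 13437 in the RNAi line and 4032 in the mutant, as was G1L9, with 1008 in the RNAi line and 109 in the mutant. AGO1D, an argonaute that binds microRNAs, had 810 in the RNAi line and 7359 in the mutant. Of 25 argonaute and small RNA genes 2 (8%) were higher and 4 (16%) lower, near the shares of all genes.

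Auxin genes went both ways. Among repressors and response factors, IAA31 had 199 in the RNAi line and 4933 in the mutant, 24.7-fold lower, IAA30 had 1846 in the RNAi line and 10772 in the mutant, and ARF9 had 512 in the RNAi line and 3059 in the mutant. ARF14 was higher, with a log2 ratio of 1.71. Among genes that inactivate auxin, GH3-8 and GH3.2, which join it to amino acids, had 5757 and 3269 in the RNAi line against 471 and 216 in the mutant, and DAO, which oxidises it, had 14104 in the RNAi line and 2833 in the mutant. GH3.1 of the same family was lower, with a log2 ratio of -1.58. FIB, of auxin synthesis, had 3126 in the RNAi line and 1169 in the mutant. Over 61 auxin genes 9 (14.8%) were higher and 14 (23.0%) lower, where 11.0% of all genes were higher and 13.4% lower. In the ethylene and cytokinin list, ACO1, an ethylene-forming enzyme, had 236 in the RNAi line and 3197 in the mutant, while the response factors RR41 and EIL1B had 5683 and 4090 in the RNAi line and were under the floor in the mutant. In that list 3 of 40 (7.5%) were higher and 7 (17.5%) lower. For abscisic acid and gibberellin the count was 5 higher (16.7%) and 4 lower (13.3%) of 30. SLR1, the gibberellin repressor, had 595 in the RNAi line and 1842 in the mutant. ABA8OX1, which breaks down abscisic acid, had 754 in the RNAi line and 229 in the mutant.

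The stage difference of the pola pair was set beside that of wild type, which uses the other 2 arrays. In wild type 2108 genes (11.8%) passed 2-fold upwards at ripening and 2315 (12.9%) downwards, 24.7% in all. Of the genes higher in the pola pair 1428 were higher in wild type as well, which is 72.5% of the pola pair's and 67.7% of wild type's. For lower genes the shared number was 1833, or 76.5% of the pola pair's and 79.2% of wild type's. Across 17905 genes, which are not independent replicates, Pearson's r of the ratios was 0.902 and Spearman's rho 0.814. Among genes above the floor on all 4 arrays, the log2 ratio of PPDKB was 5.79 in the pola pair and 5.66 in wild type, that of Sbe1 4.85 and 4.22, that of SUS1 -3.40 and -2.98, and that of AP25, a tapetum protease, -2.46 and -2.69. Genes past 2-fold in the pola pair and within 2-fold in wild type numbered 538 higher and 559 lower, and 677 and 479 were higher and lower only in wild type. Of 12099 genes above the floor on all 4 arrays, the ratio of the pola pair was at least 2-fold above that of wild type for 225 (1.86%) and at least 2-fold below it for 408 (3.37%). None of these differences between pairs was tested.

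**Figure D4:**
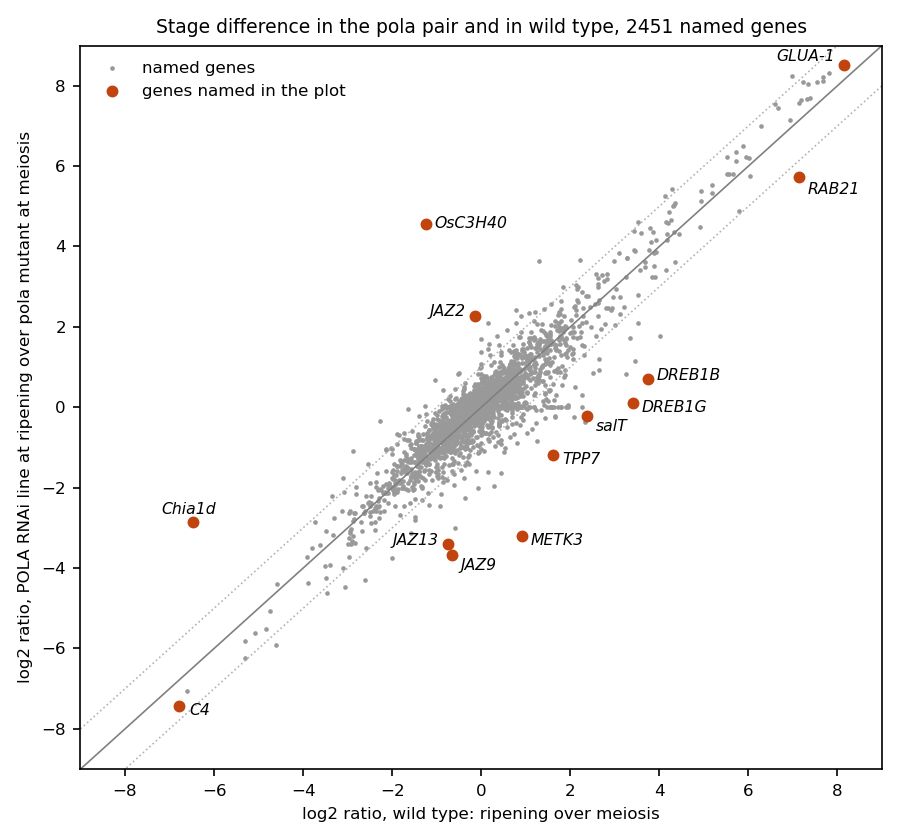
Log2 ratio of the POLA RNAi line at ripening over the pola mutant at meiosis (vertical axis) against that of wild type at ripening over meiosis (horizontal axis) for 2451 named genes, 1 array per group. The solid line marks equal ratios and the dotted lines 2-fold, and JAZ9 at -3.68 and OsC3H40, drawn at its bound of 4.57, lie far outside them.

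Some jasmonate repressors had a stage difference that was not that of wild type. JAZ proteins hold back jasmonate responses. Of 13 measured JAZ genes, 5 had a ratio at least 2-fold below that of wild type, 1 had one at least 2-fold above it and 7 were within 2-fold of it. Over all 17905 genes 3.96% were that far below wild type and 2.35% that far above. JAZ9 and JAZ13 were named because their departures were among the largest. JAZ9 had 255 in the RNAi line and 3271 in the mutant, a log2 ratio of -3.68, against 1138 in wild type at ripening and 1804 in wild type at meiosis, a ratio of -0.66. JAZ13 had 311 in the RNAi line and 3304 in the mutant, against 867 in wild type at ripening and 1459 in wild type at meiosis. For both, the RNAi line was the lowest of the 4 arrays and the mutant the highest. JAZ10 had 1509 in the RNAi line and 2192 in the mutant, against 2205 in wild type at ripening and 998 in wild type at meiosis. JAZ12 had 4890 in the RNAi line and 3334 in the mutant, against 5100 in wild type at ripening and 1461 in wild type at meiosis, so there the mutant stood out and the RNAi line was near its wild type. JAZ7 was one of the 7 near wild type, with 5964 in the RNAi line and 15898 in the mutant, against 5203 in wild type at ripening and 11787 in wild type at meiosis. JAZ2 went the other way, with 788 in the RNAi line and 40.9 in the mutant, against 191 in wild type at ripening and 210 in wild type at meiosis. Over 35 jasmonate genes 3 (8.57%) were higher and 7 (20%) lower in the pola pair. In wild type 7 of the 35 were higher and 4 lower. Of all genes 11.0% were higher and 13.4% lower in the pola pair, against 11.8% and 12.9% in wild type. With the floor doubled, 1 of the 35 was higher in the pola pair. With a pseudocount in place of the floor, 5 of the 35 were higher there. Of the 22 other genes of the list, 3 had a ratio at least 2-fold below that of wild type and 19 were within 2-fold of it. Of these 19, AOC3 had a log2 ratio of -1.12 in the pola pair and -1.73 in wild type, LOX5 had -2.08 and -1.95, and the receptor gene COI1 had -1.47 and -1.44. OsbHLH148, a factor of the jasmonate and drought response, had 391 in the RNAi line and 499 in the mutant, against 1024 in wild type at ripening and 203 in wild type at meiosis.

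Cold and drought factors differed by stage in wild type more than in the pola pair. None of the 8 measured genes was past 2-fold in the pola pair, where 5 were under the floor on both arrays. In wild type 4 were higher at ripening. Of all genes 11.0% were higher in the pola pair and 11.8% in wild type. Among 8 genes, none higher is not far from that share in the pola pair. With a pseudocount in place of the floor, 3 of the 8 were higher in the pola pair. DREB1B, which turns on cold response genes, had 264 in the RNAi line and 44.7 in the mutant, against 2171 in wild type at ripening and 103 in wild type at meiosis. DREB1G had 175 in the RNAi line and 115 in the mutant, against 1722 in wild type at ripening and 77.6 in wild type at meiosis. In each case wild type at ripening was the 1 bright array. CML31, a calmodulin-like protein, had 568 in the RNAi line and 321 in the mutant, against 2317 in wild type at ripening and 244 in wild type at meiosis. salT, a lectin of the salt and drought response, had 7786 in the RNAi line and 9125 in the mutant, against 15226 in wild type at ripening and 2921 in wild type at meiosis. WRKY71 had 1170 in the RNAi line and 1118 in the mutant, against 2895 in wild type at ripening and 746 in wild type at meiosis. Among alpha-amylase genes, for enzymes that break down starch, 2 of 5 were higher in the pola pair and 3 in wild type. AMY1.2 and AMY1.3 had 1.85 and 48.2 in the RNAi line and 37.3 and 40.3 in the mutant, against 491 and 485 in wild type at ripening and 25.7 and 61.7 in wild type at meiosis. AMY1.4 was bright on both ripening arrays, with 1996 in the RNAi line, against 3305 in wild type at ripening.

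**Figure D5:**
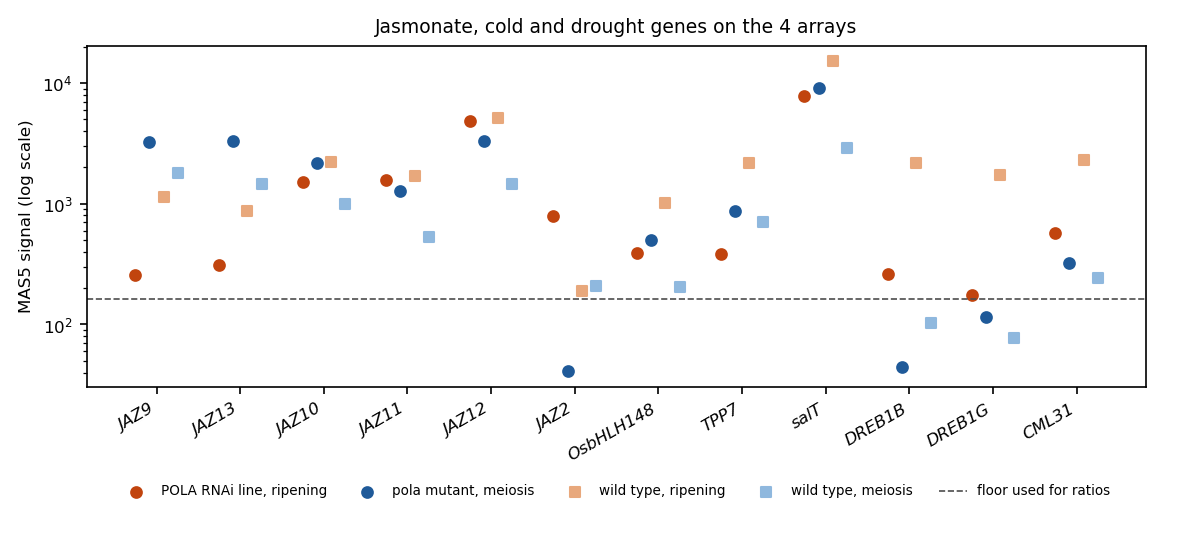
MAS5 signals (vertical log axis) of 12 jasmonate, cold and drought genes on the 4 arrays, 1 array per group, with circles for the RNAi line and the mutant, squares for wild type and a dashed line at the floor of 163. JAZ9 and JAZ13 are lowest in the RNAi line and highest in the mutant, while DREB1B and DREB1G are bright in wild type at ripening alone, at 2171 and 1722.

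Other genes departed upwards from wild type. HSFA2C, a heat shock factor, had 1259 in the RNAi line and 233 in the mutant, a log2 ratio of 2.43, against 787 in wild type at ripening and 456 in wild type at meiosis, a ratio of 0.79. TDC2, a tryptophan decarboxylase, had 1166 in the RNAi line and 270 in the mutant, against 1001 in wild type at ripening and 581 in wild type at meiosis. ACLA-2, a subunit of ATP citrate lyase, had 3711 in the RNAi line and 12604 in the mutant, against 1097 in wild type at ripening and 9504 in wild type at meiosis. The apyrase gene APY3 had 861 in the RNAi line and 1830 in the mutant, against 284 in wild type at ripening and 2097 in wild type at meiosis. For APY3 and ACLA-2 the RNAi line was above its wild type by a larger fold than the mutant differed from meiotic wild type. GST1, a glutathione transferase, had 1292 in the RNAi line and 1626 in the mutant, against 346 in wild type at ripening and 1680 in wild type at meiosis. Chia1d, named above, had 2679 in the RNAi line, against 29.2 for wild type at ripening, so its log2 ratio was -2.85 in the pola pair and at most -6.48 in wild type. Downward departures included HOX12, a homeodomain factor, with 224 in the RNAi line and 1790 in the mutant, against 648 in wild type at ripening and 978 in wild type at meiosis. PPT3, a plastid phosphoenolpyruvate transporter, had 235 in the RNAi line and 919 in the mutant, against 685 in wild type at ripening and 566 in wild type at meiosis. METK3, an S-adenosylmethionine synthetase picked after its values were seen, had 67.2 in the RNAi line and 1501 in the mutant, against 1822 in wild type at ripening and 969 in wild type at meiosis, so the RNAi line was the 1 array under the floor.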

How the data were processed

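Panicle RNA was hybridized to Affymetrix rice arrays, 1 array for each of 4 groups, with groups taken from titles and sources. The authors deposited intensity on a linear scale, made with MAS5 per the submitters' processing notes, and the 2% trimmed mean was 500.1 on each array. For the MAS5 version, the scanner and the cultivar, the sources used here give nothing. Per the labels' protocols, Trizol extraction was followed by one-cycle biotin labelling. No normalization was added.

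Control probe sets (187) were left out. Of 57194 others, 22436 were paired with 1 gene, 95 with several and 34663 were not listed in the probe table. Names came from the reference table of assembly GCF_034140825.1 (ASM3414082v1), which also gave gene order. Of 17905 genes 2451 had a descriptive name. For each gene the probe set brightest over the 4 arrays was used, with _x_at sets only where no other existed. Signals under 163 were raised to that value and a log2 ratio of 1 was the threshold. A stretch of neighbours needed 4 genes.

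Named genes were the 12 largest ratios each way measured on both arrays, the 10 brightest each way with the other array under the floor, up to 4 each way from each of 35 lists with the lists' main members, genes opposite in the pola and wild-type pairs, and the 8 largest departures each way. Others are named after their values were seen, as were the diterpenoid, phosphate, nitrogen, beta-glucosidase, kinase, phosphatase, acetyltransferase and florigen families. Lists were sets of gene symbols. The comparison, its floor and the lists were chosen with earlier results of these data known. A search for promoter motifs was planned and not run, because no promoter sequences were at hand. Mature pollen markers could not be matched by symbol. The code was tested on simulated data. Alternatives were a pseudocount of 23.4 with no floor, a floor of 326, quantile normalization, a median ratio of 0, loess centring with a span of 0.3, the mean over probe sets and a 4-fold threshold. Tables were handled in pandas 2.3.3 and numpy 2.4.6 under Python 3.11.15, loess came from statsmodels 0.14.6, rank correlations from scipy 1.17.1 and figures from matplotlib 3.10.9.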

Additional observations from a re-analysis of the deposited data

Results flagged for a closer look

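In 6 genes the stage difference ran in opposite directions in the pola pair and in wild type, with both past 2-fold, and with 1 array per group the difference was not tested. Under a floor of 326 this was lost for OsC3H40, whose wild-type ratio became -0.25, and for LOC4324525, at 0.66 in the pola pair and -0.62 in wild type. LOC4348113 came to -0.97 in the pola pair under quantile normalization, and TPP7 to -0.59 as the mean over its probe sets. OsC3H40, a CCCH zinc finger protein, had 3867 in the RNAi line and 24.2 in the mutant, a log2 ratio of at least 4.57, against 129 in wild type at ripening and 387 in wild type at meiosis. The RNAi line was the highest of the 4 arrays and the mutant the lowest. LOC4325215 had 1359 in the RNAi line and 29.8 in the mutant, a ratio of at least 3.06, against 56.9 in wild type at ripening and 1354 in wild type at meiosis, so its RNAi and meiotic wild-type signals were nearly equal. It lies in a stretch of 4 neighbouring genes that were all higher in the RNAi line. LOC4324525 had 516 in the RNAi line and 30.1 in the mutant, a ratio of at least 1.66, against 219 in wild type at ripening and 501 in wild type at meiosis. In the other direction, TPP7, a trehalose phosphate phosphatase, had 380 in the RNAi line and 868 in the mutant, a ratio of -1.19, against 2173 in wild type at ripening and 712 in wild type at meiosis. LOC4344351 had 692 in the RNAi line and 1920 in the mutant, a ratio of -1.47, against 1382 in wild type at ripening and 380 in wild type at meiosis. LOC4348113 had 426 in the RNAi line and 894 in the mutant, a ratio of -1.07, against 848 in wild type at ripening and 378 in wild type at meiosis. None of the 6 had a further probe set above the floor in the pola pair.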

How the results depend on the processing

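No paired analysis was possible because each group had 1 array. Without the floor and with a pseudocount, 7596 probe sets were higher and 5985 lower in the RNAi line, against 3179 and 3615 with it, and 9674 higher and 6111 lower in wild type at ripening, against 3714 and 3507. At 4-fold, 1180 were higher and 1211 lower, and with 1 probe set per gene 1969 and 2395. Genes opposite in the pola pair and wild type were 3 higher and 3 lower, 29 higher and 22 lower with the pseudocount, and 1 higher with the doubled floor of 326. Of 402 list, family and rule genes past 2-fold, 309 stayed there under each of 6 alternatives, and the doubled floor took 59 under it. CSLE2, at -1.09, was at 0.0019 as the mean over its probe sets, the 1 reversal among these genes. Signals near the floor limit what can be ordered.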

Other observations

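Nitrogen genes differed within families. The cytosolic glutamine synthetase genes GLN1-2 and GLN1-3 had 11969 and 7534 in the RNAi line against 2850 and 945 in the mutant, while GLN1-1 had 7226 in the RNAi line and 13908 in the mutant. AAH, which releases nitrogen from allantoate, had 5690 in the RNAi line and 236 in the mutant, a log2 ratio of 4.59. Of 19 measured nitrogen assimilation genes 5 were higher and 1 lower, and 9 were under the floor on both arrays. Beta-glucosidases were higher in 11 of 27 and lower in 3. BGLU31 had 8168 in the RNAi line and 176 in the mutant, and its neighbour in number BGLU30 had 36.0 in the RNAi line and 1372 in the mutant. The kinase gene CPK23 had 36938 in the RNAi line and 1785 in the mutant, and 5 of 21 calcium-dependent protein kinases were higher and 1 lower. Of 55 protein phosphatase 2C genes 7 were higher and 6 lower in the pola pair, near the shares of all genes (11.0% and 13.4%), and 12 higher and 7 lower in wild type. PP2C30 had 1925 in the RNAi line and 1017 in the mutant, against 2062 in wild type at ripening and 331 in wild type at meiosis, and OsPP2C32 had 463 in the RNAi line and 374 in the mutant, against 1445 in wild type at ripening and 302 in wild type at meiosis.

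Genes of green tissue were present on both arrays. Of 23 photosynthesis and chlorophyll genes 3 (13.0%) were higher and 2 (8.70%) lower, where 11.0% of all genes were higher and 13.4% lower. CAB2R, a chlorophyll-binding protein, had 30868 in the RNAi line and 19898 in the mutant. SGR and NYC1, which act in chlorophyll breakdown, had 2226 and 1634 in the RNAi line against 680 and 628 in the mutant. PORA, of chlorophyll synthesis, had 83.4 in the RNAi line and 3093 in the mutant, a log2 ratio of at most -4.25. Among 25 aquaporins 6 were higher and 6 lower. PIP2-6 had 1320 in the RNAi line and 20337 in the mutant. Of 45 antioxidant and metallothionein genes 11 were higher and 3 lower, with MT-1 at 18103 in the RNAi line and 1899 in the mutant. Metal transport and chelation genes were higher in 6 of 43 and lower in 3, and YSL12 had 2147 in the RNAi line and 143 in the mutant. Lipid transfer proteins were higher in 2 of 5, and LTP-2 had 32407 in the RNAi line and 141 in the mutant while LTP110-A had 16057 in the RNAi line and 22708 in the mutant. Of 6 WRKY factors 1 was higher in the pola pair and 3 in wild type.

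A stretch of 5 neighbouring genes with no name in the tables, from LOC4348119 to LOC4348123, was lower in the RNAi line throughout, with a median log2 ratio of -4.63. Signals in the mutant lay between 13982 and 22286, and in wild type the stretch had log2 ratios between -5.91 and -2.02.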
